A study of Mus musculus with 13 samples.

Results

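The fibroblast partner break is here a window of mouse chromosome 15 around a peak of joins to the c-myc I-SceI break in transformed fibroblasts. Its members are the junctions placed from 61919001 to 61933263 of chromosome 15 (mm9) in the 7 c-myc libraries, and there were 1147 of them among 9577 c-myc junctions and 16455 junctions of the whole series. Of these, 1086 came from fibroblasts and 61 from B cells. The members were chosen by the position of fibroblast junctions, with the window drawn around their peak, so their number, their share of a library and their crowding at the peak are descriptions without a test. Every member carried the gene label Pvt1 in the deposited tables. Exons and introns were not analysed here.

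Junctions were mapped by high-throughput genome-wide translocation sequencing, which starts from 1 known break (the bait) and reads the DNA (the prey) that was joined to it. The bait was a cassette of I-SceI sites at c-myc in 7 libraries, and at the immunoglobulin heavy chain locus (IgH) in 6. The 4 fibroblast libraries came from tail fibroblasts transformed with SV40, with the genotype c-myc25xI;RosaI-SceI-GR and no activation. The 3 c-myc B-cell libraries came from splenic B cells of the genotype c-myc25-2xI, activated with anti-CD40/IL-4. The IgH libraries had the genotype IgH2-28xI, with 3 of splenic B cells activated with anti-CD40/IL-4 and 3 of splenic T cells activated with ConcanavalinA/IL-2. The labels name no nuclease for the fibroblast partner break. They give no ages, no number of fibroblast lines or clones, and nothing that makes replicates separate animals or cultures, so p-values measure only the spread between these libraries. No expression was measured, so the cell types could not be checked against markers.

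A double-strand break leaves 2 ends, and cells mostly rejoin them by nonhomologous end joining, which can join ends directly, trim them, or add bases. Joins can also use a few bases that both ends share, called microhomology. Separate breaks on 1 chromosome can join with loss of the stretch between them (a deletion) or with that stretch turned around (an inversion). Pvt1 is a long noncoding RNA gene next to Myc, known as a recurrent site of rearrangement and viral insertion in mouse and human tumours.

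The prey sequences of the fibroblasts overlapped so that the sequence around the break could be read from the deposited tables. It is shown because its centre is where the junctions lie. The stretch covers chr15:61923203-61923322 (mm9, + strand), was covered by 195 to 413 junctions at each base with 0 disagreeing letters, and the capitals mark the 5 bases on either side of the peak.
Partner break: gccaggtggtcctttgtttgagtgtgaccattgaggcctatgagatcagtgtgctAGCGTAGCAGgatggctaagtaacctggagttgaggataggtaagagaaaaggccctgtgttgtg

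The position of a junction is given here as a boundary, that is by the base to its left on the chromosome, which is how the tables number junctions of both strands. The peak is the boundary between bases 61923262 and 61923263. A junction on the + strand reads to the right from its boundary, and a junction on the - strand reads to the left. The 3 boundaries with the most junctions on each strand are shown by the first 20 bases of the prey as read from the break, with the 3 bases that met the cassette in capitals.
Plus strand from 61923262: AGCaggatggctaagtaacc
Plus strand from 61923261: TAGcaggatggctaagtaac
Plus strand from 61923265: AGGatggctaagtaacctgg
Minus strand from 61923262: ACGctagcacactgatctca
Minus strand from 61923263: TACgctagcacactgatctc
Minus strand from 61923260: GCTagcacactgatctcata

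As deposited, both strands had their most used boundary at the same place. On the + strand 92 of 585 fibroblast junctions lay at 61923262, with 26, 15, 26 and 25 in replicates 1 to 4. On the - strand 75 of 501 lay at the same boundary, with 26, 16, 16 and 17. Each of the 4 libraries thus had junctions of both strands at this boundary. Whether the break itself lay there was not tested. The next most used boundaries were 1 base further into the other side, with 77 + strand junctions at 61923261 and 67 - strand junctions at 61923263. The third on each strand lay inward of the end it kept, with 41 + strand junctions at 61923265 and 36 - strand junctions at 61923260.

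**Figure D1:**
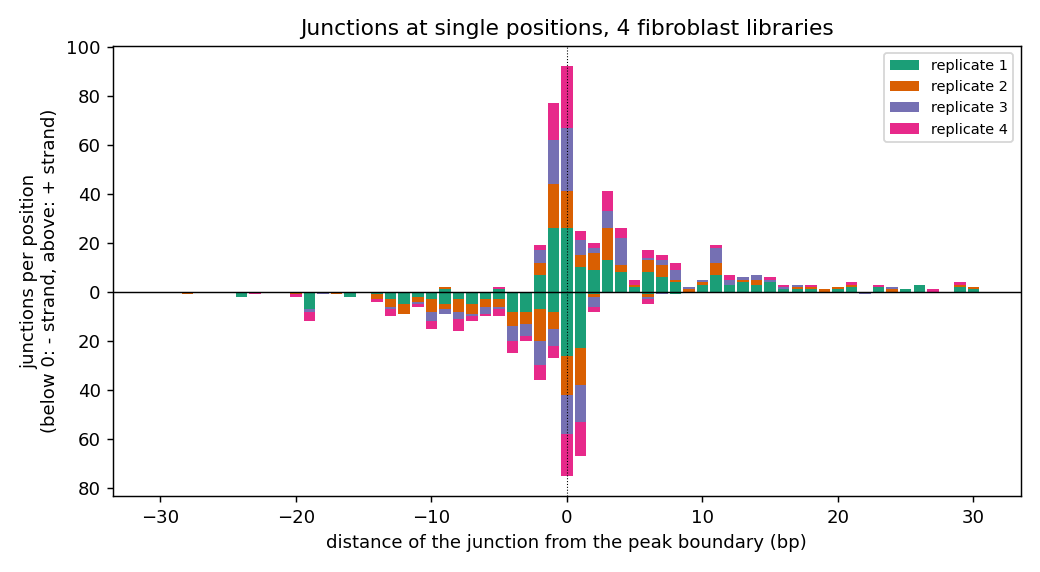
Fibroblast junctions at each boundary within 30 bp of the peak (x axis, bp), as the number of junctions (y axis), with the + strand above 0, the - strand drawn downwards and colours for the 4 replicates. The 92 + strand and 75 - strand junctions at distance 0 face each other, with + strand junctions trailing to the right and - strand junctions to the left in all 4 replicates.

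Many junctions placed past the peak shared bases with the cassette. Shared bases are those that read equally well as cassette and as prey, and the tables give them to the prey. Of the 67 - strand junctions at 61923263, 50 shared the letters TA with the end of their cassette sequence, and of the 77 + strand junctions at 61923261, 25 shared TA. When shared bases were given to the cassette, the most used boundaries became 61923262 on the + strand, with 77 junctions, and 61923261 on the - strand, with 81. The share of junctions that passed the peak by 1 to 10 bases was 16.9% ± 1.22 (SD, n = 4) as deposited and 5.81% ± 0.895 (SD, n = 4) with shared bases given to the cassette.

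The letters next to the peak were compared with the cassette and with a short motif. The region read from the tables was 6262 bases of the 14263 in the window, and none of its 13-base words (0) occurred in the cassette sequence at the start of the reads, on either strand. The motif NGG begins 3 bases to the right of the peak, as AGG at bases 61923266 to 61923268. Of 6141 boundaries with sequence on both sides, 759 had NGG placed so on the right or its complement CCN placed so on the left, which is 12.4%. Such a match describes letters and does not show what made the break.

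The fibroblast window held about as large a share in each fibroblast library. Replicates 1 to 4 held 378 of 980, 260 of 769, 238 of 620 and 210 of 562 junctions there. These are shares of 38.6% (95% Wilson interval 35.6 to 41.7), 33.8% (30.6 to 37.2), 38.4% (34.6 to 42.3) and 37.4% (33.5 to 41.4), with a mean of 37.03% ± 2.21 (SD, n = 4). Replicate 2 was the lowest, with an interval that overlapped those of the other 3. Counted with 1 junction per position and strand, the mean was 20.1%. In replicates 1 to 4, 283, 187, 170 and 149 junctions of the window shared position and strand with another of their library.

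The same window held few junctions in c-myc B cells and none in the IgH libraries. B-cell replicates 14, 36 and 37 held 34 of 2918, 23 of 2850 and 4 of 878 junctions, or 1.17% (0.835 to 1.62), 0.807% (0.538 to 1.21) and 0.456% (0.177 to 1.17). All B-cell libraries lay far below all fibroblast libraries, a difference that the choice of the window fixed. The 6 IgH libraries held 0 of 6878 junctions, which allows shares of up to 0.111% to 0.775% in single libraries by a limit of 3 counts, and of 0.142% to 0.983% by the upper Wilson bound. Intervals and limits cover counting error only.

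**Figure D2:**
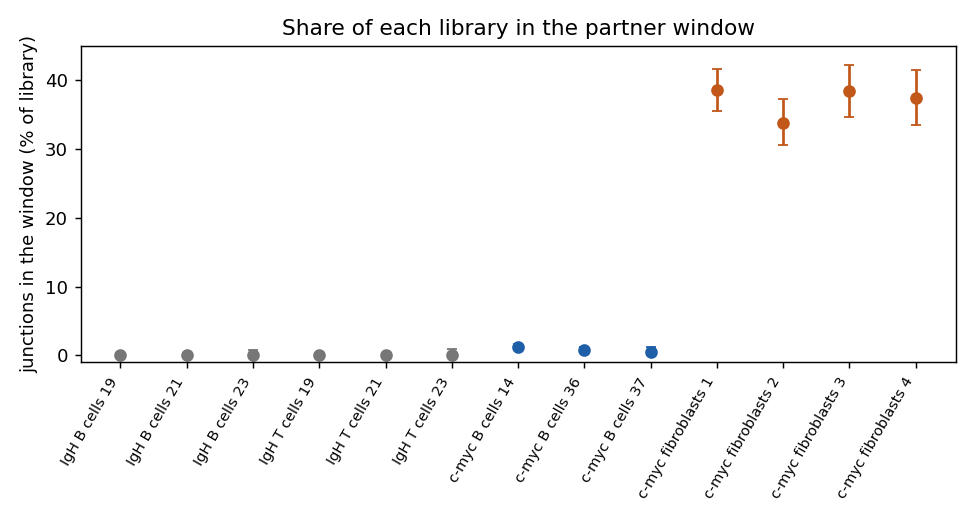
Junctions in the partner window as percent of each library (y axis), for the 13 libraries (x axis). Points are libraries and bars are 95% Wilson intervals. The 4 fibroblast libraries sit between 33.8% and 38.6%, the 3 c-myc B-cell libraries between 0.456% and 1.17%, and the 6 IgH libraries at 0.

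Fibroblast junctions crowded within a few bases of the peak. At the peak itself lay 15.8% ± 3.66 (SD, n = 4) of a library's junctions in the window. Within 1 bp the share was 33.9% ± 4.27, within 10 bp 64.8% ± 3.29, within 100 bp 82.3% ± 1.0003 and within 1000 bp 93.5% ± 1.43 (SD, n = 4 each). All 1086 lay within 5000 bp, with the lowest position 3929 bp to the left and the highest 4626 bp to the right. The fibroblast libraries differed little in this measure, at 81.4% to 83.5% within 100 bp.

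B-cell junctions had no such peak. Of the 61 as deposited, 0 lay within 10 bp of the peak and 2 within 100 bp, while 27 lay to its left and 34 to its right. The B-cell tables use positions that are 172 bp higher here, as all 2925 shared words of 24 bases showed. With positions moved by that offset, 1 B-cell junction lay within 10 bp, at 2 bp from the peak, and 3 lay within 100 bp. Per kb of the window B cells had 0 to 12 junctions as deposited, with 12 in the kb at the lower edge, next to the B-cell partner cluster.

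**Figure D3:**
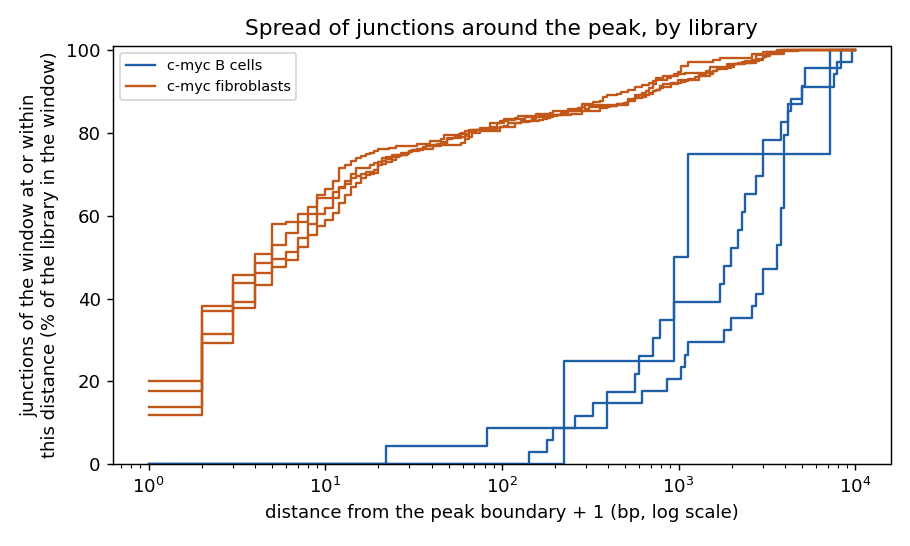
Percent of each library's junctions in the window that lie at or within a distance of the peak (y axis), against that distance plus 1 bp on a log scale (x axis), with 1 line per library. The 4 fibroblast lines run together and pass 80% by 100 bp, where the B-cell lines stand between 0% and 8.70%. B-cell positions are drawn as deposited, without the move by 172 bp.

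At the edges of the window the counts were low. In fibroblasts 3 junctions lay in the first 1000 bp inside the lower edge and 7 in the 1000 bp outside it, while at the upper edge there were 0 inside and 1 outside. The nearest fibroblast junction below the window was at 61918963 and the nearest above it at 61933857. In B cells 12 junctions lay inside the lower edge and 33 outside it.

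Loss of bases from the broken ends was mostly short, counted as distance from the peak as if every break lay there. On the + strand 168 of 585 junctions had lost 1 to 10 bases from the right end, 111 had lost 11 to 100, 42 had lost over 100 and up to 1000, and 27 had lost more. On the - strand 180 of 501 had lost 1 to 10 bases from the left end, 72 had lost 11 to 100, 39 had lost over 100 and up to 1000, and 16 had lost more. The median loss was 3 bases on the + strand and 2 on the - strand when junctions past the peak counted as negative losses. It was 4 and 3 bases with shared bases given to the cassette and, placed in that way, 6.5 and 5 bases over the junctions at the peak or on its kept side. Over all junctions as deposited it was, by replicate, 3, 3, 0.5 and 3 bases on the + strand and 3, 3, 2 and 1.5 on the - strand, so the strands overlapped. The largest losses counted so were 4626 bases on the + strand and 3929 on the - strand. Whether the junctions more than 100 bp out came from a break at the peak was not tested.

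A minority of junctions lay on the side of the peak away from the end their strand reads from. As deposited, 182 of 1086 fibroblast junctions were past the peak by 1 to 10 bases and 13 by 11 to 100. Another 39 + strand junctions lay more than 100 bp to the left and 30 - strand junctions more than 100 bp to the right. These far ones together made up 6.20% ± 1.04 (SD, n = 4) of a library's window. Further than 100 bp out, strand was mixed on both sides. On the right 69 of 99 junctions were on the + strand, with 24 of 37, 18 of 26, 5 of 10 and 22 of 26 in replicates 1 to 4. On the left 55 of 94 were on the - strand, with 19 of 33, 9 of 17, 20 of 31 and 7 of 13.

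Strand also gives the orientation of the join. In the bait window, which is 10 kb on either side of the bait peak at 61818879, 599 of 686 + strand junctions lay at or right of the bait peak and 240 of 297 - strand junctions to its left. The bait therefore reads towards higher positions, and the partner break lies 104 kb further along. A + strand junction there has the orientation of a deletion and a - strand junction that of an inversion, if both breaks were on the same copy of the chromosome. The tables do not tell which copy a junction lies on.

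Both orientations were used at nearly the same rate in fibroblasts. Replicates 1 to 4 had 212, 131, 126 and 116 + strand junctions and 166, 129, 112 and 94 - strand junctions. The + strand shares were 56.1% (51.0 to 61.0), 50.4% (44.3 to 56.4), 52.9% (46.6 to 59.2) and 55.2% (48.5 to 61.8), with a mean of 53.7% ± 2.56 (SD, n = 4). In replicate 1 the interval lay above equal use, and in the other 3 it included it.

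The bait window was more one-sided. There 70.6%, 69.6%, 68.2% and 70.4% of junctions in replicates 1 to 4 were on the + strand. The partner window was lower by 16.1 points ± 2.13 (SD of the 4 paired differences), in 4 of 4 libraries (exact permutation by sign flips, p = 0.125, the smallest 4 libraries can give, adjusted p = 0.344 over 11 tests). Keeping 1 junction for each position and strand gave -10.1 points, and the value was -9.37 points without junctions within 100 bp of either peak (exact sign-flip permutation p = 0.375).

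In c-myc B cells 18 of 34, 14 of 23 and 3 of 4 junctions of the window were on the + strand in replicates 14, 36 and 37. Without replicate 37, which had fewer than 5 junctions, fibroblasts minus B cells was -3.24 points (exact permutation p = 0.533, adjusted p = 0.733, with 0.133 the smallest possible), and the libraries overlapped. It was 0.721 points without B-cell replicate 36 as well, which left 1 B-cell library, and -7.21 points without replicate 14. Windows of 1 kb gave -13.9 points, prey of at least 50 bases -11.7 and windows of 5 kb -7.60. Each had the smallest possible exact permutation p = 0.133. The windows of 1 kb held only 7 and 9 B-cell junctions in replicates 14 and 36, with B-cell positions as deposited. All 3 B-cell libraries together gave -9.27 points (exact permutation p = 0.229). Effects of cell type, SV40 transformation, activation, genotype, supply of I-SceI and sequencing run cannot be told apart, since the groups differ in all. The 4 fibroblast libraries shared 1 run and the B-cell libraries came from 3 others.

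The joins themselves fell into 3 classes, by whether cassette and prey shared bases at the join (microhomology), met without shared or added bases (blunt), or were separated by bases that belong to neither (insertion). Of the 1086 fibroblast junctions in the window, 1073 could be classified. A single shared base counted as microhomology, and the share to be had by chance was not worked out. Microhomology made up 57.6%, 59.8%, 61.6% and 58.0% in replicates 1 to 4, a mean of 59.3% ± 1.85 (SD, n = 4). Blunt joins made up 26.1%, 22.4%, 21.1% and 26.1%, a mean of 23.9% ± 2.57. Insertions made up 16.3%, 17.7%, 17.3% and 15.9%, a mean of 16.8% ± 0.839. The libraries lay close together in all 3 classes.

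Blunt joins were more frequent at the partner break than near the bait. The bait window had 6.13% ± 1.68 (SD, n = 4) blunt joins, 17.8 points ± 4.05 fewer than the partner window and lower in 4 of 4 libraries. Microhomology was at 74.8% ± 3.37 near the bait, so that the partner window was lower by 15.5 points ± 3.41, again in 4 of 4 libraries. For both, exact permutation by sign flips gave p = 0.125, the lowest that can be reached, and adjusted p = 0.344. Insertions were at 19.1% ± 3.54 near the bait (difference -2.26 points, lower in 3 of 4 libraries, exact sign-flip permutation p = 0.375, adjusted p = 0.688), and that difference was -0.671 points without replicate 1 and -3.60 without replicate 3. The differences in blunt joins and microhomology depended on the setting. With windows of 1 kb they were 20.4 and -17.2 points. Without junctions within 100 bp of either peak the difference in blunt joins was 1.23 points and that in microhomology -2.44 points, and keeping 1 junction for each position and strand gave 6.48 and -4.67 points.

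As deposited, with every junction counted, the means of the partner window and of other chromosomes lay within 2 points of each other in all classes. On other chromosomes microhomology made up 60.7% ± 3.48, blunt joins 24.4% ± 2.23 and insertions 14.9% ± 2.08 (SD, n = 4 each). The partner window minus other chromosomes was -1.41 points for microhomology (exact sign-flip permutation p = 0.5, adjusted p = 0.733) and -0.467 points for blunt joins (exact sign-flip permutation p = 0.75, adjusted p = 0.825). For insertions it was 1.88 points, higher in 4 of 4 libraries with differences from 0.103 to 4.50 points (exact permutation by sign flips, p = 0.125, adjusted p = 0.344). That value was 1.01 points without replicate 3, 1.18 with windows of 1 kb (exact permutation by sign flips, p = 0.375), and 1.01 to 4.61 over all alternatives. Counting each position and strand once, blunt joins differed by -11.01 points (exact permutation by sign flips, p = 0.125). Without junctions within 100 bp of the peak, microhomology was 11.9 points higher in the partner window than on other chromosomes and blunt joins differed by -16.5 points (exact permutation by sign flips, p = 0.125 for both).

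**Figure D4:**
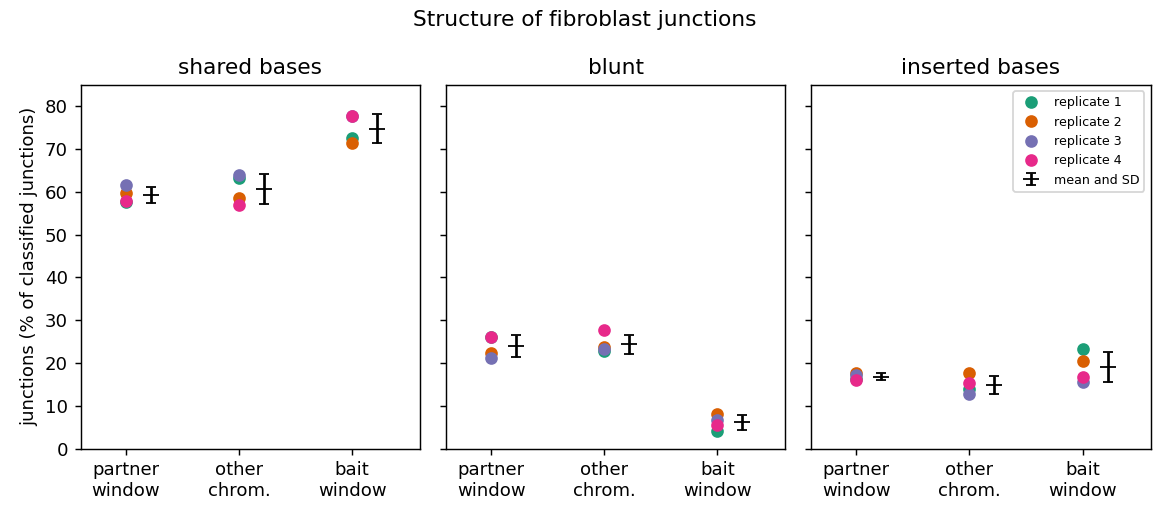
Percent of classified fibroblast junctions (y axis) with shared bases, blunt, or with inserted bases, in the partner window, on other chromosomes and in the bait window (x axis). Points are the 4 replicates and black marks the mean and SD. Blunt joins sit at 21.1% to 26.1% in the partner window and at 4.21% to 8.09% in the bait window, without overlap.

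Within the partner window the classes changed with distance from the peak. Within 10 bp, 30.5% ± 4.44 (SD, n = 4) of joins were blunt and 52.2% ± 4.91 had microhomology. From 11 to 100 bp these shares were 15.6% ± 8.46 and 71.9% ± 6.14, and beyond 100 bp 7.87% ± 4.06 and 72.6% ± 9.54. In every library the share of blunt joins within 10 bp was above that beyond 100 bp, at 31.3%, 29.4%, 25.3% and 36.03% against 7.14%, 9.52%, 12.2% and 2.63% in replicates 1 to 4. The outer class held only 70, 43, 41 and 39 junctions. This split was made after the values were seen and was not tested.

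Differences between the 2 orientations were within the spread of the libraries. Microhomology made up 59.3% ± 4.59 on the + strand and 59.2% ± 3.46 on the - strand (difference 0.114 points, exact sign-flip permutation p = 1, adjusted p = 1). The difference was 1.25 points for blunt joins (exact sign-flip permutation p = 0.75, adjusted p = 0.825) and -1.36 points for insertions (exact sign-flip permutation p = 0.375, adjusted p = 0.688). Paired differences in microhomology ranged from -10.7 to 5.07 points, a spread that differences of a few points could not be told from with 4 libraries.

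Shared stretches were short. Of 634 joins with microhomology in the partner window, 216 shared 1 base, 212 shared 2, 109 shared 3, 55 shared 4 and 42 shared 5 or more, with a median of 2. In the bait window the median was 3 and 149 of 721 shared 5 or more, which is 20.7% against 6.62% in the partner window. On other chromosomes the median was 2 and 10.1% shared 5 or more. These lengths were not tested.

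Insertions at the partner break were often a single A. Of 180 insertions, 75 were 1 base long, and 52 of those 75 were A as read from the cassette into the prey, against 13 T, 7 G and 3 C. By replicate A made up 15 of 23, 12 of 18, 12 of 16 and 13 of 18, so it was the commonest base in each library. At the peak boundary itself 19 of 20 single-base insertions on the + strand and 21 of 21 on the - strand were A. The prey of both strands begins with A at this boundary, so each such inserted A stood beside an A. Whether these were added or misread bases was not tested. In the bait window 17 of 38 single-base insertions were A and on other chromosomes 2 of 19. This was seen in the data and not tested. The single base was the commonest length, and 63 of 180 insertions had 5 bases or more, 31 of them at least 20, with a longest of 82.

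Reads of the partner window rarely returned to the cassette. Some reads run past the end of the prey, and when that sequence is again cassette the prey lies between cassette stretches of the read. In the partner window 2, 3, 3 and 2 reads of replicates 1 to 4 did so, or 0.974% ± 0.323 (SD, n = 4). Near the bait 9.65% ± 3.38 did so and on other chromosomes 17.9% ± 3.06, and the 4 partner values lay below all 8 others. The prey had a median of 128 bases at the partner break, 119 near the bait and 123.5 on other chromosomes. The cassette sequence before it was longer in partner reads, with medians of 147 to 157 bases by replicate, against 116 to 121 near the bait and 122 to 139.5 on other chromosomes. The median sequence left after the prey was 39 bases in all 3 regions and 4 libraries, and at least 12 bases were left in 87.8%, 88.2% and 87.0% of reads. What these bases are was not worked out, so they do not show that the regions left equal room for cassette sequence. Replicate 1 had 0.529% (0.145 to 1.91) in the partner window against 20.5% (15.8 to 26.3) on other chromosomes. This measure was added after the values were seen, and neither the measure nor how such reads arose was tested.

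**Figure D5:**
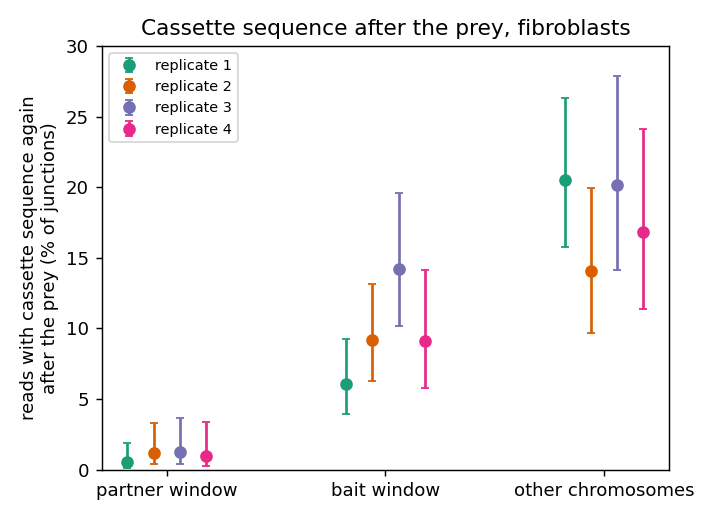
Fibroblast reads that hold cassette sequence again after the prey, as percent of junctions (y axis), for prey of the partner window, of the bait window or of other chromosomes (x axis). Points are replicates and bars 95% Wilson intervals. The partner window sits between 0.529% and 1.26% and other chromosomes between 14.04% and 20.5%.

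The 4 fibroblast libraries used many of the same boundaries. Of 303 combinations of position and strand in the window, 26 occurred in all 4 libraries, 14 in 3, 15 in 2 and 248 in 1. With the far end of the prey included, 65 of 950 combinations occurred in more than 1 library, and with the length of the cassette sequence included as well, 5 of 1081 did, each in 2 libraries. Within libraries 64 junctions repeated the position, strand and far end of another, with 31, 13, 12 and 8 in replicates 1 to 4. With the length of the cassette sequence included as well, 0 were repeated. At the peak boundary the 92 + strand junctions had 65 different far ends and the 75 - strand junctions 55. Whether any junctions shared between or within libraries have a common origin was not tested.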

How the data were processed

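Each line of a deposited table is 1 read with the position and strand of its prey and its sequence, per the file headers. The score is deposited as the authors' alignment score and was not used to filter. The build is mm9, per the submitters' processing notes. The aligner is not given in the sources used here, nor are filters, and mm9 coordinates of the B-cell tables differ from those of the fibroblasts by 172 bp here. Starts count from 0 in the deposited tables, so that the junction column is a boundary on either strand.

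Each line was counted as 1 junction, including lines at the same position. The cassette end on a read was the end of the last 12-base word of the cassette before the prey, with words taken from the consensus of read starts and from words held by at least 10 reads with a prey on another chromosome. No error rate of this classification is given here. Libraries held 562 to 980 junctions in fibroblasts and 878 to 2918 in c-myc B cells, which limits shares to the Wilson intervals given. Cell types were compared over libraries by exact permutation tests (two-sided), and paired regions of the same libraries by exact sign-flip tests, with Benjamini-Hochberg adjustment over 11 tests. No such test could pass 0.05, because 4 pairs give at least 0.125. The members, windows and tests were chosen with earlier results of these data known. Positions and sequences were named by a rule: the 3 most used boundaries per strand, the peak and the outermost junctions. Alternatives were 1 junction per position and strand, prey of at least 50 bases, windows of 1 kb and 5 kb, leaving out junctions within 100 bp of the peaks, other denominators and leaving out each library. Python 3.11.15, numpy 2.4.6, pandas 2.3.3, scipy 1.17.1 and matplotlib 3.10.9 were used.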

Additional observations from a re-analysis of the deposited data

Results flagged for a closer look

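In fibroblasts 13 reads went on from a prey on another chromosome into at least 16 bases of the partner region, among 662 such junctions, with 6, 3, 4 and 0 in replicates 1 to 4, against 1 of 1067 in c-myc B cells. These reads lie outside the counts of the window, because the tables list only the first prey. In the partner window 10 reads went on into cassette sequence. Both values were singled out because they come from a part of the reads that the tables do not place, and median read length over whole libraries was 205 to 272 bases in B cells against 336 to 345 in fibroblasts. No fibroblast library stood apart from the other 3 by Dixon's test in 9 measures of the window.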

How the results depend on the processing

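No paired analysis was possible because the 2 c-myc groups share no replicate numbers. The fibroblast share of 37.03% was 34.6% with windows of 1 kb, 20.1% for single positions and strands, 47.8% of the junctions of chromosome 15 and 55.8% of those outside the bait window, and 36.5% to 38.1% without single libraries. Of 119 values under alternatives, 17 turned direction, in 7 of 11 tested results. None of those 7 had its smallest possible p in the main setting. Under alternatives that p could be reached. An example is microhomology, partner window minus other chromosomes, without junctions within 100 bp (exact sign-flip permutation p = 0.125). For + strand share, fibroblasts minus B cells, the difference was -13.9 (windows of 1 kb) to 1.35 points (without junctions within 100 bp) over the other settings and -7.21 to 0.721 points without single libraries. For microhomology, partner window minus other chromosomes, it was 7.89 points when each position and strand counted once and 11.9 without junctions within 100 bp, and -2.33 to -0.00963 without single libraries. For microhomology, + minus - strand, it was -2.98, -0.920 (prey of at least 50 bases) and -7.38 (the first and last as for the result before), and -1.54 to 3.73 without single libraries. For insertions it was 1.21 points (partner minus bait, without 100 bp) and -3.60 to -0.671 without single libraries, and for + minus - strand 1.21 (1 per position and strand) and 3.04 (without 100 bp). For blunt joins, partner window minus other chromosomes, it was 0.768 with windows of 1 kb and -1.71 to 0.0784 without single libraries, and for + minus - strand -0.0513 with 1 junction per position, strand and far end and -1.92 to 4.05 without single libraries. The cause was not tested. The alternative with 1 junction per position, strand and far end and the one with B-cell positions moved by 172 bp, which gave -4.05 points in + strand share, were chosen after seeing the data. Depth limits the B-cell values most, with 4 to 34 junctions a library.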
